A study of Mus musculus with 13 samples.

Results

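A set of 8 genes of neuronal identity was followed across sciatic nerve arrays of diabetic and nondiabetic mice. They are Isl1, Pou4f1, Runx1, Myt1, Elavl4, Rbfox3, Nap1l2 and Ntrk3. They were chosen by their log2 levels on these arrays, which were in view when the list was drawn up, so those levels and the genotype differences are a description with no test. All 8 were measured, each by 1 probe set, among 15437 genes. The arrays fell into BKS db/db mice, homozygous for the db mutation of the leptin receptor gene (6 arrays, samples 110, 111, 112, 409, 410 and 411), and BKS db/+ mice, which carry 1 copy of it (7 arrays, samples 101, 103, 104, 105, 106, 404 and 407). All mice were 24 weeks old and no treatment is named. Homozygotes become obese and diabetic, the mutation acts in the whole body from the germ line, and the db/+ control is itself a carrier and not wild type. The labels do not state that each array came from a separate animal, so p-values cover only the spread among the arrays at hand, which may be technical, and precision is limited by how many arrays there are.

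Most of the listed genes act in the cell bodies of neurons. Isl1, a LIM homeodomain factor, and Pou4f1, a POU homeodomain factor also called Brn3a, act together in developing and adult sensory neurons of dorsal root ganglia. Runx1 is a Runt factor of nociceptors and also of blood cells, and Myt1 is a zinc finger factor of neuronal differentiation. Elavl4 (HuD) and Rbfox3 (the NeuN antigen) are RNA-binding proteins of neurons, Nap1l2 is a neuronal nucleosome assembly protein, and Ntrk3 encodes TrkC, the receptor for neurotrophin-3. In a peripheral nerve the axons of sensory, motor and sympathetic neurons run among Schwann cells, fibroblasts, vessels and immune cells, while their nuclei lie in ganglia and the spinal cord.

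The promoters of Isl1 and Pou4f1 are shown because these genes moved together across the arrays, and that of Runx1 because it did not follow them. RefSeq windows (GRCm38.p6) run from 250 bases before to 50 bases after an annotated start, and 6 of the 8 genes had 12 such windows in all. In the Isl1 window, chr13:116309639-116309938 (minus strand), and the Pou4f1 window, chr14:104467950-104468249 (minus strand), capitals mark CAGCTG, an E-box of the kind that neuronal basic helix-loop-helix factors bind. In the Runx1 window, chr16:92826025-92826324 (minus strand), capitals mark TGTGGTT, a Runx recognition sequence, here read on the other strand as AACCACA.
Isl1: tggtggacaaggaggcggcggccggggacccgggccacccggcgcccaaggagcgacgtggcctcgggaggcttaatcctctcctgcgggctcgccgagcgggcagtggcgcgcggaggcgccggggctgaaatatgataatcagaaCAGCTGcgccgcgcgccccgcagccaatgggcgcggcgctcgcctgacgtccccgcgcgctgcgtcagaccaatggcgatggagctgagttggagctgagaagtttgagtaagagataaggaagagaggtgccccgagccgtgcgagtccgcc
Pou4f1: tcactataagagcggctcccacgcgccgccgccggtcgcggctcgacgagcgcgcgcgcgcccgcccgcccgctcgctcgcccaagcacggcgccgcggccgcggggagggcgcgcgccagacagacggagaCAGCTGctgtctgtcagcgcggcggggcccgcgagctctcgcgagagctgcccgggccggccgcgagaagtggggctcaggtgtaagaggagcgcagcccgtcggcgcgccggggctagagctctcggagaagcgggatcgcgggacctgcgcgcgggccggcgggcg
Runx1: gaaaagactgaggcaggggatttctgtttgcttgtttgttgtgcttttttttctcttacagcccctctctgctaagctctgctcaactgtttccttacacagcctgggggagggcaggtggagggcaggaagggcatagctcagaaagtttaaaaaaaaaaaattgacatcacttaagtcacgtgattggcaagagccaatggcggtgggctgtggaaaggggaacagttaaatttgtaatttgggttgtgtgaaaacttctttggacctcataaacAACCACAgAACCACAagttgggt

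The E-box begins 103 bases before the start in Isl1 and 118 bases before it in Pou4f1, and 16.3% of all 32851 windows hold CAGCTG. Of 2 Runx1 windows the one shown was picked because it holds TGTGGTT, and the other holds 0 matches to any motif searched. The window shown has 2 copies of TGTGGTT, the first bases of which lie 27 and 35 bases after the start, and 5.27% of all windows hold at least 1. Both strands were searched for 5 further motifs. The E-box CACCTG is in 20.2% of all windows, while the variant CAGATG is in 17.1% and the variant CACGTG in 7.15%. The homeodomain sequence TAATTA is in 5.29% of windows, and the core of the element bound by the repressor REST is in 0.04%. The Isl1 window held none of them, the Pou4f1 window held 1 match, to the first, and the Runx1 window shown 2, to the first and the third, and 0 of these overlapped the letters in capitals. CAGCTG was also in 2 overlapping Elavl4 windows but in no Myt1 or Rbfox3 window, and the REST core was in none of the 12. A match describes these letters and shows no binding.

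The arrays were comparable in overall signal, with medians between 8.63 and 8.71 on the log2 scale and correlations between array pairs from 0.894 to 0.989 across genes. Earlier work on these data set db/+ 101, 103, 104 and 106 apart from the other 9 arrays for their high neuronal transcripts, and values are given here for those 4 arrays and for db/+ 105, 404 and 407 separately. That division follows the measured levels and no label, so it has no test. The sample numbers form 2 series, 101 to 112 and 404 to 411, whose meaning is not stated, and the mean of the Cre hybridisation control probe sets was 15.13 to 15.71 in the higher series against 14.26 to 14.41 in the lower one. Schwann cell and myelin markers, the defining transcripts of nerve, were present throughout, with a list mean of 9.81 to 11.08 in db/db, 10.62 to 11.28 in db/+ 105, 404 and 407, and 11.15 to 11.70 in the 4 arrays. Over all arrays 5 of the 8 measured were lower in db/db and 0 higher (limma, adjusted p of 0.05), where 11.7% of all genes fell and 13.4% rose. Without the 4 arrays 0 of the 8 passed, where 12.9% of all genes did. The part of this in the listed genes was not tested.

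In db/db nerve 7 of the genes were 1.99 to 20.4 times lower on average than in db/+ nerve, and the differences were smaller once 4 db/+ arrays were left out. Isl1, Pou4f1, Myt1, Elavl4, Rbfox3, Nap1l2 and Ntrk3 each stood higher on db/+ 101, 103, 104 and 106 than on any of the other 9 arrays, an order that 8.45% of all genes show. Runx1 was lower on those 4 arrays than on every other array, as were 8.13% of all genes. By the fit over all genes (limma, Benjamini-Hochberg adjusted p of 0.05), 7 of the 8 were lower and 0 higher, where 25.1% of all genes passed, 11.7% lower and 13.4% higher. Because this contrast was in view when the genes were listed, nothing is read from that count. In whole nerve RNA, a different mix of cells or tissue in the sample and a different amount of RNA per cell cannot be told apart. This holds for db/db nerve and for the 4 db/+ arrays alike.

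**Figure D1:**
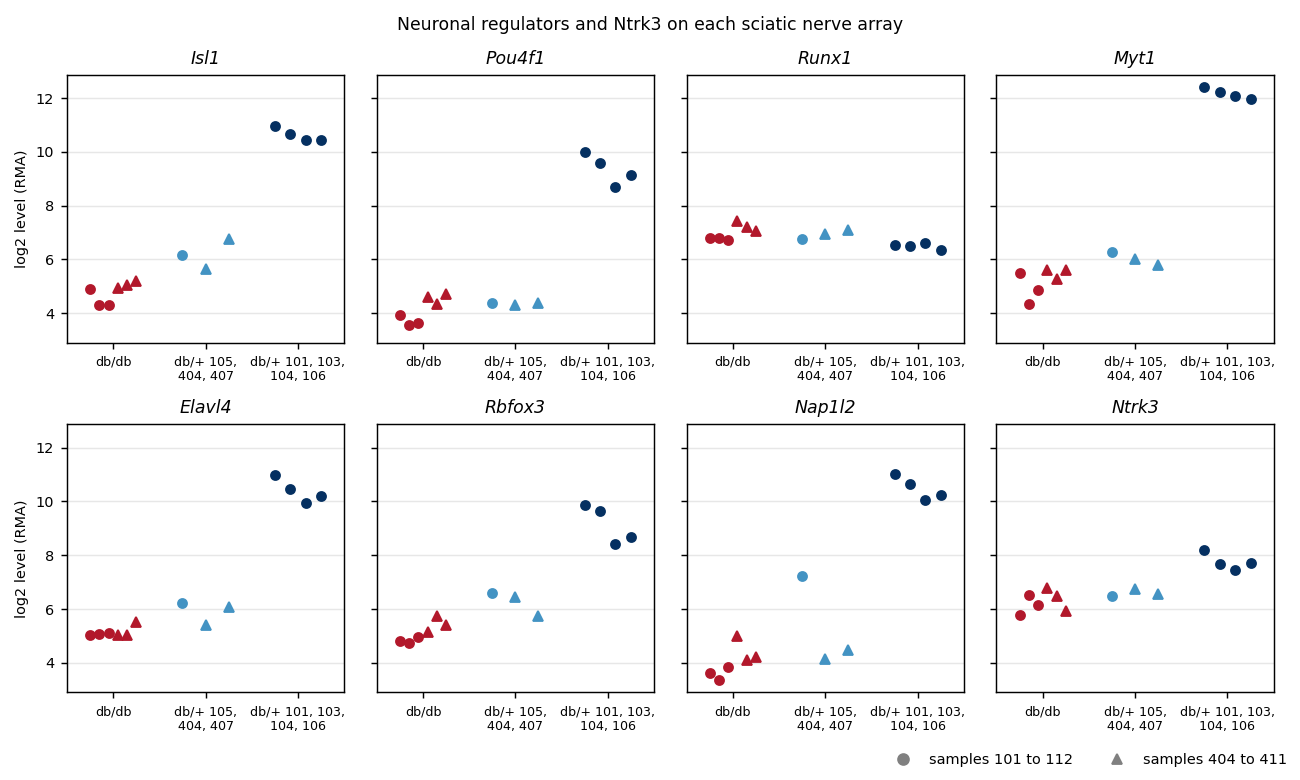
Log2 level (RMA) of the 8 genes on each of 13 arrays, 1 point an array, for 6 db/db arrays, db/+ 105, 404 and 407, and db/+ 101, 103, 104 and 106; circles are samples 101 to 112 and triangles samples 404 to 411. For 7 genes the 4 arrays on the right of each panel lie above all others, and for Runx1 they lie below.

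Isl1, needed for sensory neuron differentiation, had a lowest level of 4.29, a median of 4.91 and a highest of 5.19 in db/db nerve. In db/+ nerve it was 6.16, 5.63 and 6.76 on arrays 105, 404 and 407, and 10.95, 10.67, 10.42 and 10.45 on arrays 101, 103, 104 and 106. The genotypes did not overlap, and db/+ 105, 404 and 407 were all above every db/db array, as they were for 9.99% of all genes. The means were 4.78 ± 0.38 (SD, n = 6) in db/db and 8.72 ± 2.40 (SD, n = 7) in db/+, a difference of −3.94 ± 0.91 (SE) on the log2 scale. Without the 4 arrays it was −1.40 ± 0.28 (SE), and in samples 404 to 411 it was −1.14 ± 0.34 (SE).

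Myt1, whose protein promotes neuronal differentiation, ran from 4.33 to 5.62 with a median of 5.38 in db/db nerve. It was 6.26, 6.03 and 5.79 on db/+ 105, 404 and 407, and 12.42, 12.24, 12.09 and 11.96 on db/+ 101, 103, 104 and 106. As for Isl1, no db/db array reached any db/+ array, and these were the only 2 of the 8 genes without overlap between the genotypes, where 3.51% of all genes had db/db wholly below db/+ and 6.17% wholly above. Its distance of 5.70 between the lowest of the 4 arrays and the highest of the other 9 ranked 2 among 15437 genes, against rank 33 for Pou4f1, 43 for Elavl4 and 45 for Isl1. The genotype difference was −4.35 ± 1.25 (SE) over all arrays and −0.83 ± 0.28 (SE) without the 4 arrays.

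Pou4f1, the POU factor that specifies sensory neurons, behaved differently on the remaining db/+ arrays. Its level was 3.54 to 4.70 with a median of 4.14 in db/db nerve, 4.38, 4.31 and 4.39 on db/+ 105, 404 and 407, and 9.98, 9.59, 8.69 and 9.13 on db/+ 101, 103, 104 and 106. The 3 db/+ arrays lay inside the db/db range, while the 4 stood at least 3.98 above every other array. The difference was −3.09 ± 1.03 (SE) over all arrays, −0.24 ± 0.27 (SE) without the 4 arrays, and 0.19 ± 0.14 (SE) in samples 404 to 411, where its sign turned.

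Runx1 went the other way from the 7. It was 6.73 to 7.42 with a median of 6.92 in db/db nerve, 6.74, 6.94 and 7.10 on db/+ 105, 404 and 407, and 6.53, 6.50, 6.59 and 6.35 on db/+ 101, 103, 104 and 106. The whole spread over 13 arrays was small, and db/db overlapped the 3 db/+ arrays. The genotype difference was 0.32 ± 0.15 (SE) over all arrays and 0.08 ± 0.17 (SE) without the 4. Macrophage markers, from a lineage in which Runx1 is also active, had a list mean of 11.05 to 11.67 in db/db, 11.12 to 11.86 on db/+ 105, 404 and 407 and 11.02 to 11.17 on the 4 arrays, and their part in the Runx1 levels was not tested.

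Both RNA-binding protein genes kept a lower level in db/db nerve on the remaining arrays. Elavl4, which stabilises neuronal mRNAs, was 5.04 to 5.52 with a median of 5.06 in db/db, 6.21, 5.41 and 6.08 on db/+ 105, 404 and 407, and 11.00, 10.48, 9.93 and 10.20 on db/+ 101, 103, 104 and 106. Of the db/db arrays 5 lay between 5.04 and 5.10, and array 411 was alone above them and above db/+ 404. Rbfox3, which controls neuronal splicing, was 4.74 to 5.75 with a median of 5.06 in db/db, 6.58, 6.44 and 5.75 on db/+ 105, 404 and 407, and 9.88, 9.64, 8.42 and 8.67 on the 4 arrays. For each gene 2 of the 3 db/+ arrays were above every db/db array. Without the 4 arrays the differences were −0.76 ± 0.19 (SE) for Elavl4 and −1.12 ± 0.26 (SE) for Rbfox3, against −3.34 ± 0.92 (SE) and −2.77 ± 0.63 (SE) over all arrays.

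Nap1l2, the neuronal histone chaperone, set db/+ 105 apart. Its level was 3.35 to 5.01 with a median of 3.99 in db/db, 7.22, 4.16 and 4.46 on db/+ 105, 404 and 407, and 11.02, 10.66, 10.06 and 10.25 on db/+ 101, 103, 104 and 106. Array 105 stood between the 4 arrays and the other db/+ arrays, and 404 and 407 were inside the db/db range. The difference was −4.23 ± 1.13 (SE) over all arrays, −1.25 ± 0.63 (SE) without the 4, and 0.13 ± 0.31 (SE) in samples 404 to 411, which leave out array 105. The pan-neuronal list mean was likewise higher on db/+ 105 (8.63) than on db/+ 404 and 407 (7.90 and 7.49) and lay between 6.99 and 7.72 in db/db.

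Ntrk3, the TrkC receptor of proprioceptive neurons, varied least among the 7. It was 5.76 to 6.79 with a median of 6.33 in db/db, 6.49, 6.76 and 6.57 on db/+ 105, 404 and 407, and 8.19, 7.67, 7.46 and 7.72 on db/+ 101, 103, 104 and 106. The 3 db/+ arrays lay within the db/db range, and the 4 arrays began 0.67 above the highest other array. The difference was −0.99 ± 0.29 (SE) over all arrays and −0.33 ± 0.22 (SE) without the 4 arrays.

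**Figure D2:**
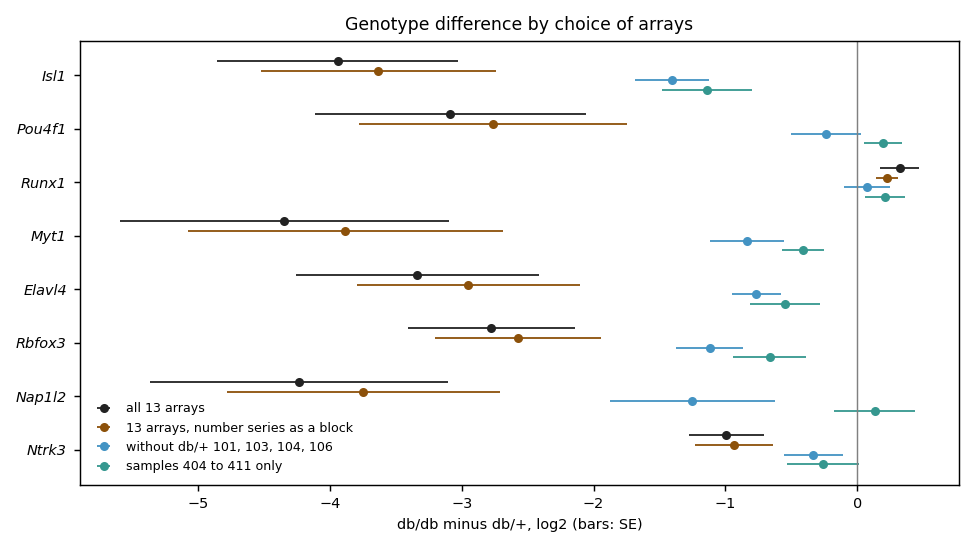
Difference between db/db and db/+ (x axis, log2, points) with its standard error (bars) for each gene in 4 fits: all arrays, all arrays with the number series as a block, db/+ 101, 103, 104 and 106 left out, and samples 404 to 411 only. Isl1 lies at −3.94 over all arrays and −1.14 in samples 404 to 411, where Pou4f1, Runx1 and Nap1l2 lie above 0.

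With the number series as a block the differences of the 7 genes ran from −3.88 for Myt1 to −0.93 for Ntrk3, and 6 of the 8 genes passed the adjusted threshold, against 27.4% of all genes, 12.9% lower and 14.5% higher; the exception among the 7 was Pou4f1 at −2.76. With the 4 arrays left out 3 of the 8 passed (Isl1, Elavl4 and Rbfox3), against 12.9% of all genes, 6.78% lower and 6.12% higher. In samples 404 to 411 0 of the 8 passed, against 9.10% of all genes, 4.17% lower and 4.93% higher, which is 1404 genes in all (4316 at an unadjusted p of 0.05, limma). In samples 101 to 112 all 7 passed, against 18.5% of all genes, 8.67% lower and 9.85% higher. These counts also describe the contrast used to list the genes. Whether genotype acted unequally in the 2 number series was fitted as their interaction, which passed for 0 of the 8 and for 0.0% of all genes by limma (2360 genes at an unadjusted p of 0.05). The 4 arrays are all db/+ in the lower series, so for the listed genes this is a description and no test. Estimates were 4.10 for Isl1, 5.69 for Myt1 and 6.36 for Nap1l2 on the log2 scale, and −0.02 for Runx1. That fit puts db/+ 105 in 1 group with the 4 arrays, which widens the spread, so 0 does not show equal action.

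Among the 4 arrays, 101 had the highest level of all 7 genes, and 104 had the lowest of 6, Myt1 being lowest on array 106. Actin signal at the 3' end exceeded that at the 5' end, a sign of RNA breakdown, by 0.96, 1.08, 1.39 and 1.20 on arrays 101, 103, 104 and 106, 0.40 to 1.14 on db/+ 105, 404 and 407, and 0.48 to 0.92 in db/db, and its part was not tested. Over 13 arrays the 21 pairs among the 7 genes had Pearson correlations from 0.90 to 0.99, and the 7 pairs with Runx1 from −0.76 to −0.57. As the arrays lie in separate clusters, those values restate the distance between the clusters. After the median of each of the 3 sets of arrays was subtracted, the 21 correlations ran from −0.03 to 0.74 with a median of 0.36, highest for Pou4f1 with Rbfox3 and lowest for Myt1 with Ntrk3. The points share arrays and normalization.

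Within db/db nerve the listing used no division, but the levels on these 6 arrays were in view when it was drawn up. For the listed genes the fit between the number series is therefore also a description with no test. All 8 genes had a higher mean in samples 409 to 411 than in samples 110 to 112, and for 5 (Isl1, Pou4f1, Runx1, Rbfox3 and Nap1l2) the series did not overlap, where 19.4% of all genes had the higher series wholly above the lower one. One gene passed over all genes, against 2.40% of all genes, 1.50% higher and 0.90% lower. It was Pou4f1, at 4.59, 4.35 and 4.70 in db/db 409, 410 and 411 against 3.93, 3.54 and 3.63 in db/db 110, 111 and 112. Pou4f1 rose by 0.84 ± 0.15 (SE) in the higher series (limma, Benjamini-Hochberg adjusted p = 0.0494). That call was lost when any 1 of the 6 arrays was left out (adjusted p from 0.0748 to 0.167), with renewed quantile normalization (0.0600) and with the spread pooled over all 13 arrays (0.107).

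Runx1 in the same comparison was 7.42, 7.22 and 7.05 in db/db 409, 410 and 411 against 6.79, 6.79 and 6.73 in db/db 110, 111 and 112. The series did not overlap, and the difference of 0.46 ± 0.12 (SE) did not pass (limma, Benjamini-Hochberg adjusted p = 0.0845). Nap1l2 stood at 0.83 ± 0.27 (SE) with an adjusted p of 0.135, Rbfox3 at 0.59 ± 0.17 (0.107) and Isl1 at 0.56 ± 0.18 (0.130), all by limma with Benjamini-Hochberg adjustment. Elavl4, at 0.12, Ntrk3, at 0.26, and Myt1, at 0.60, had overlapping series. The Cre controls were 15.13 to 15.26 in db/db 409 to 411 against 14.38 to 14.41 in db/db 110 to 112, and their part in these differences was not tested.

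**Figure D3:**
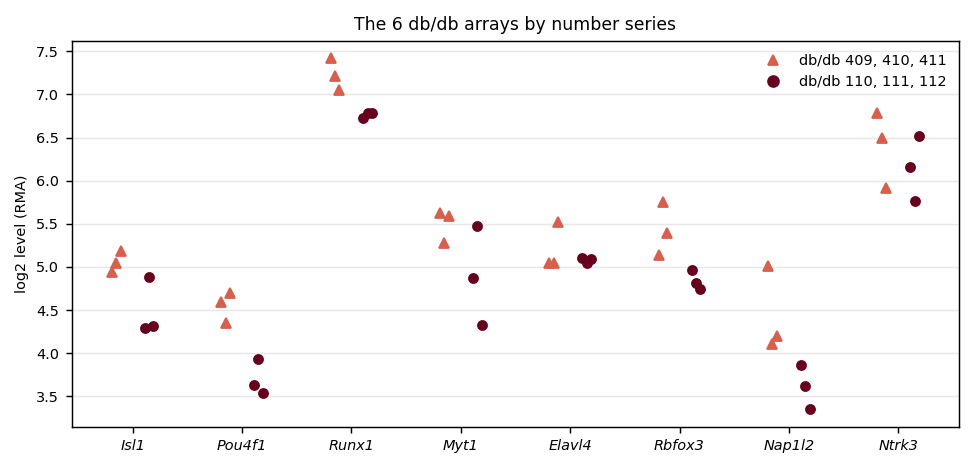
Log2 level (RMA) of the 8 genes on the 6 db/db arrays, samples 409 to 411 as triangles and samples 110 to 112 as circles, 1 point an array. Pou4f1, at 4.35 to 4.70 in the higher series and 3.54 to 3.93 in the lower, has the clearest gap.

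The genes with the profiles most like the mean of the 8, each profile scaled to the same spread, were Tmem130, Cend1, Reep2, Rprm, Scg3, Elavl2, Shd, Napb, Isl2 and Tmem59l, with Pearson correlations from 0.986 to 0.991 over 13 arrays. Scg3 is a protein of secretory granules, Cend1 promotes cell cycle exit in neurons, and Napb serves vesicle fusion. Tmem130, the nearest, lay between 3.91 and 5.28 in db/db, 5.10 and 5.73 on db/+ 105, 404 and 407 and 10.51 and 11.56 on the 4 arrays. The likeness is a matter of the 4 arrays: 292 of 15429 genes had a correlation of at least 0.95, rank correlation shared 2 of the 10 names, and the 9 remaining arrays shared 0.

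For single genes, the nearest were Tspyl4 for Isl1 (0.995), St8sia3 for Pou4f1 (0.997), Elavl2 for Myt1 (0.994), Cpne6 for Elavl4 (0.997), Phf24 for Rbfox3 (0.993) and Gabrg1, a GABA-A receptor subunit, for Nap1l2 (0.992). For Ntrk3 it was a probe set with no symbol (0.966), and for Runx1 it was Tgm1, a transglutaminase (0.958). After subtracting set medians the nearest were Wdfy1 and Slc7a7 for Isl1, Rtca and Hc for Pou4f1, Fcnb and Agpat4 for Runx1, 4933427E11Rik and Plekhd1 for Myt1, Tstd3 and Sh3bgrl2 for Elavl4, Polr3g and Hacd1 for Rbfox3, Gatad2b and Gabrg1 for Nap1l2, and Mical1 and Asphd2 for Ntrk3. Their correlations ran from 0.872 to 0.966 over 13 arrays, and Gabrg1 alone, for Nap1l2, appeared under both measures.

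Among relatives of the listed genes, Isl2, Elavl2, Myt1l, Rbfox1, Nap1l3 and Nap1l5 were higher on all 4 arrays than on the other 9. Of 18 listed 15 were measured. Isl2, the other Islet factor, fell by 3.03 ± 0.99 (SE) on the log2 scale in db/db nerve (limma, Benjamini-Hochberg adjusted p = 0.0395). It was 5.48 to 6.68 in db/db, 5.96 to 6.62 on db/+ 105, 404 and 407, and 11.71, 11.31, 10.84 and 10.83 on db/+ 101, 103, 104 and 106, so that the 3 db/+ arrays lay in the db/db range. Elavl2, a neuronal relative of Elavl4, fell by 3.66 ± 1.13 (SE) (adjusted p = 0.0327) and ran from 10.11 to 10.99 on the 4 arrays against 5.23 at most elsewhere. With the 4 arrays left out Isl2 and Elavl2 stood at −0.30 and −0.49 (limma, Benjamini-Hochberg adjusted p = 0.561 and 0.268). Both calls also ended when any 1 of 10 arrays was left out, the 6 db/db arrays and db/+ 101, 103, 104 and 106 (adjusted p from 0.0590 to 0.0779 for Isl2 and from 0.0509 to 0.0655 for Elavl2).

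Elavl3, Pou4f3 and Runx3 were not set apart on the 4 arrays. Elavl3, likewise a neuronal RNA-binding protein gene, was 4.98 to 5.67 in db/db and 5.05 to 5.44 in db/+ (limma, Benjamini-Hochberg adjusted p = 0.357), with the 4 arrays inside the range of the others. Pou4f3, known from hair cells and sensory neurons, was 3.90 to 4.50 in db/db and 3.88 to 4.38 in db/+ (adjusted p = 0.875). Runx3, the Runt factor of TrkC neurons, was 5.47 to 6.12 in db/db, 6.15 to 6.56 on db/+ 105, 404 and 407, and 5.89 to 6.18 on the 4 arrays (adjusted p = 0.171). Of the Myt1 family, Myt1l fell by 1.73 ± 0.52 (SE) (limma, Benjamini-Hochberg adjusted p = 0.0275), with 5.89 to 6.80 on the 4 arrays and 4.14 at most elsewhere, and St18 was 4.32 to 6.14 in db/db against 3.79 to 5.22 in db/+ (difference 0.50, adjusted p = 0.279). Myt1l lost its call without db/+ 103, 104 or 106 or db/db 409 (adjusted p from 0.0502 to 0.0560).

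Among the Rbfox genes, Rbfox2 was 7.95 to 8.65 in db/db and 7.80 to 9.43 in db/+ (limma, Benjamini-Hochberg adjusted p = 0.494). Rbfox1, expressed in neurons and in muscle, was 10.14 to 11.29 on the 4 arrays but also 9.64 on db/db 411, 7.98 on db/+ 407 and 7.19 on db/db 112. The mean of 8 skeletal muscle markers was highest in db/db on array 411 and among db/+ 105, 404 and 407 on array 407, at 12.04 and 11.36. On db/+ 101, 103, 104 and 106 that mean was 11.94, 9.09, 8.16 and 6.76. The part of muscle in the Rbfox1 levels was not tested. Rbfox1 stood at −2.58 ± 0.94 (SE) over all arrays (adjusted p = 0.0601).

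**Figure D4:**
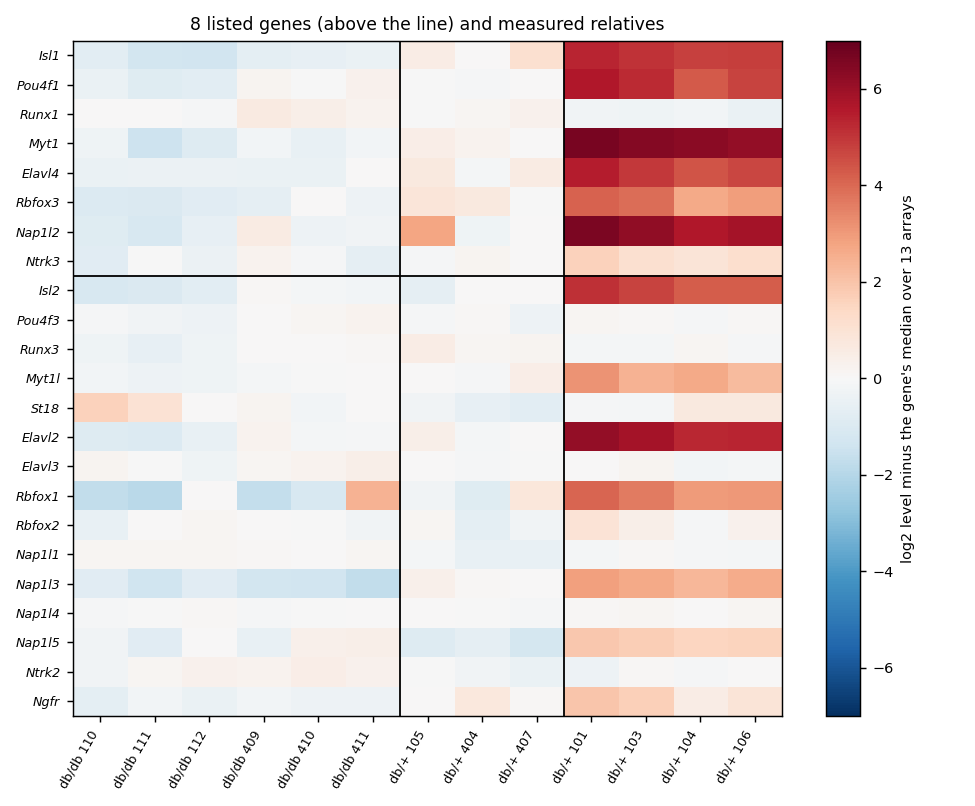
Levels of the 8 genes (above the line) and 15 measured relatives (below it) on 13 arrays, as log2 level minus the gene's own median over the arrays; red is above and blue below that median, and vertical lines part db/db, db/+ 105, 404 and 407, and db/+ 101, 103, 104 and 106. Isl2, Elavl2, Myt1l, Rbfox1, Nap1l3 and Nap1l5 are red on the 4 arrays, and Pou4f3, Runx3, Elavl3 and Nap1l4 are pale throughout.

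Of 4 measured nucleosome assembly genes besides Nap1l2, Nap1l3 fell and Nap1l1 rose in db/db nerve, where 11.7% of all genes fell and 13.4% rose. Nap1l3, another neuronal member, was 6.82 to 7.78 in db/db, 8.90, 8.63 and 8.56 on db/+ 105, 404 and 407, and 11.44, 11.21, 10.88 and 11.17 on the 4 arrays. It fell by 2.79 ± 0.52 (SE) over all arrays (limma, Benjamini-Hochberg adjusted p = 0.00246) and by 1.37 without the 4 arrays (adjusted p = 0.00422), and in samples 404 to 411 by 1.49 (adjusted p = 0.0169). Unlike Nap1l2, it was higher on each of the 3 db/+ arrays than on any db/db array, as were 9.99% of all genes. Nap1l1, the widely expressed member, rose by 0.31 ± 0.10 (SE) (adjusted p = 0.0368), a call that ended without db/+ 106 or 404 or any 1 of db/db 110, 111, 112, 409 and 411 (adjusted p from 0.0523 to 0.0673).

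The other 2 members did not pass. Nap1l5 was 9.62 to 10.82 in db/db, 9.18 to 9.76 on db/+ 105, 404 and 407 and 11.88 to 12.28 on the 4 arrays, so that its difference of −0.68 ± 0.55 (SE) over all arrays turned to 0.80 without the 4 (limma, Benjamini-Hochberg adjusted p = 0.393 and 0.0873). Nap1l4 was 12.98 to 13.15 in db/db and 13.01 to 13.20 in db/+.

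Of 14 measured sensory neuron transcription factors, among 23 listed, 3 fell, 1 rose and 10 did not pass, with a median of −0.21 on the log2 scale, against 11.7% lower, 13.4% higher and a median of 0.02 over all genes. The share that passed is near the 25.1% of all genes. Besides Isl2, Klf7, a factor needed for TrkA expression in the mouse, fell by 0.77 ± 0.17 (SE), with 10.99 to 11.85 in db/db and 11.69 to 12.72 in db/+ (limma, Benjamini-Hochberg adjusted p = 0.00553). Etv1, a factor of proprioceptors, fell by 0.82 ± 0.22 (SE) (adjusted p = 0.0180). Cux2 rose by 1.29 ± 0.17 (SE), with 7.29 to 8.22 in db/db and 5.84 to 6.70 in db/+ (adjusted p = 0.000203). Outside the 4 arrays Cux2 kept its call at 1.34 (adjusted p = 0.00745) and Klf7 and Etv1 lost theirs at −0.53 and −0.40 (adjusted p = 0.107 and 0.262).

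Of 16 measured genes of the Myt1 family and general neuronal differentiation, 5 fell and 11 did not pass, with a median of −0.30, where 11.7% of all genes fell and 13.4% rose. They were Ebf2, Scrt1, Myt1l, Onecut2 and Scrt2, all transcription factors. Ebf2 fell by 0.65 ± 0.14 (SE) (limma, Benjamini-Hochberg adjusted p = 0.00631) and was the 1 member to fall without the 4 arrays, by 0.93 (adjusted p = 0.00372). It was 7.85 to 8.47 in db/db, 9.02 to 9.13 on db/+ 105, 404 and 407 and 8.41 to 8.79 on the 4 arrays, so the 4 were not its highest. Ebf2 is also a factor of brown and beige fat precursors. Scrt1 fell by 0.49 ± 0.13 (SE), with 3.99 to 4.35 in db/db and 4.16 to 5.05 in db/+ (adjusted p = 0.0132). The count of 5 was 2 or 3 without any 1 db/db array or any 1 of db/+ 101, 103, 104 and 106.

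Among 16 measured cofactors of the LIM and Runx factors 7 fell, 2 rose and 7 did not pass, with a median of −0.26, where 11.7% of all genes fell and 13.4% rose. Hipk2, a kinase that binds homeodomain factors, rose by 1.79 ± 0.21 (SE) (limma, Benjamini-Hochberg adjusted p = 0.000112) and was 10.37 to 11.27 in db/db against 8.50 to 9.83 in db/+. Runx1t1, a corepressor known from its fusion with Runx1, fell by 0.91 ± 0.13 (SE) (adjusted p = 0.000432), with 7.98 to 8.52 in db/db and 8.83 to 9.57 in db/+. Tle3, a Groucho corepressor, rose by 0.75 ± 0.15 (SE) (adjusted p = 0.00302), with 6.69 to 7.02 in db/db, 6.35 to 6.54 on db/+ 105, 404 and 407 and 5.53 to 6.18 on the 4 arrays, its lowest. All 3 passed without the 4 arrays, at 1.50, −0.99 and 0.47 (limma, Benjamini-Hochberg adjusted p = 0.00760, 0.00231 and 0.0175). For these 3 genes, picked by smallest p, the genotypes did not overlap, where 3.51% of all genes had db/db wholly below db/+ and 6.17% wholly above. With the 4 arrays left out the list gave 2 that fell and 2 that rose, where 6.78% of all genes fell and 6.12% rose.

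Of 17 measured neuronal RNA-binding protein genes 4 fell, 1 rose and 12 did not pass, with a median of −0.22. That is near the 25.1% of all genes that passed, 11.7% lower and 13.4% higher. Celf4 fell by 1.07 ± 0.23 (SE), Nova1 by 0.81 ± 0.19 and Khdrbs3 by 0.63 ± 0.21, each a splicing factor gene, and Elavl2 is given above (limma, Benjamini-Hochberg adjusted p = 0.00568, 0.00934 and 0.0399). Cpeb3, a translational regulator, rose by 0.40 ± 0.12 (SE) (adjusted p = 0.0239), but not without db/db 112 or 411 (0.0523 and 0.0537). Nova1 was highest on a db/+ array outside the 4, with 6.59 to 7.56 in db/db, 7.68 to 8.66 on db/+ 105, 404 and 407 and 7.60 to 8.31 on the 4. The count of 5 was 3 without db/+ 101, 103, 104 or 106 or db/db 110, 112, 409, 410 or 411. With the 4 arrays left out 0 of the 17 passed by limma's adjusted p, where 12.9% of all genes did, and Celf4 and Nova1 stood at −0.50 and −0.87 (adjusted p = 0.0668 and 0.0569).

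Of 22 measured genes of neurotrophin signalling, among 28 listed, 5 fell, 2 rose and 15 did not pass, with a median of −0.22, where 11.7% of all genes fell and 13.4% rose. Ngfr, the low-affinity neurotrophin receptor p75, fell by 1.21 ± 0.29 (SE), with 6.22 to 6.76 in db/db, 6.92, 7.66 and 7.02 on db/+ 105, 404 and 407, and 8.86, 8.59, 7.44 and 7.81 on db/+ 101, 103, 104 and 106 (limma, Benjamini-Hochberg adjusted p = 0.00989). The genotypes did not overlap, where 3.51% of all genes had db/db wholly below db/+. Sort1, encoding sortilin, a partner of p75, rose by 0.74 ± 0.14 (SE) (adjusted p = 0.00330), and Frs3, an adaptor of Trk receptors, fell by 0.82 ± 0.16 (SE) (adjusted p = 0.00271).

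The other calls of that list were Bex3, Slitrk5, Sorcs3 and Shc3, of which the last 3 are named after their values were seen. Slitrk5, which takes part in TrkB trafficking, fell by 1.57 ± 0.41 (SE), Sorcs3, a receptor of the sortilin family, fell by 0.80 ± 0.24, and Shc3, an adaptor of Trk receptors, rose by 0.35 ± 0.09 (limma, Benjamini-Hochberg adjusted p = 0.0157, 0.0273 and 0.0195). With the 4 arrays left out they stood at −0.53, −0.20 and 0.31 and did not pass (adjusted p = 0.242, 0.350 and 0.142). Bex3, a p75-binding protein, fell by 0.72 ± 0.15 (SE) (limma, Benjamini-Hochberg adjusted p = 0.00450). Ntrk2, which encodes TrkB, was 7.21 to 7.93 in db/db and 6.99 to 7.55 in db/+, with no rise on the 4 arrays (7.11 to 7.55), and its difference of 0.35 ± 0.13 (SE) did not pass (adjusted p = 0.0582). Among the remaining 9 arrays Ngfr and Frs3 kept their calls at −0.65 and −0.58 (adjusted p = 0.0467 and 0.0499), and Sort1 and Bex3 lost theirs at 0.62 and −0.43 (adjusted p = 0.0559 and 0.0629).

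Runx1 acts in nonpeptidergic nociceptors and Ntrk3 in proprioceptors. Of 9 measured genes of those nociceptors 2 fell (Scn11a, a sodium channel, and Trpa1, an irritant channel), 0 rose and 7 did not pass, with a median of −0.67, where 11.7% of all genes fell and 13.4% rose, and 6 of the 9 were higher on all 4 arrays than on the other 9, against 8.45% of all genes. As the 4 arrays were set apart for their high neuronal transcripts, nothing is read from that last count. Trpa1 was 3.22 to 4.17 in db/db, 3.72 to 3.84 on db/+ 105, 404 and 407 and 6.56 to 7.21 on the 4 (−1.91 ± 0.64 (SE), limma, Benjamini-Hochberg adjusted p = 0.0454). Mrgpra3, an itch receptor, stood at −1.96 ± 0.69 (SE) (adjusted p = 0.0523). Leaving out any 1 db/db array or any 1 of db/+ 101, 103, 104 and 106 left 0 of the 9 past the threshold, and leaving out db/+ 105, 404 or 407 gave 4. On the remaining 9 arrays neither channel passed, at −0.55 for Scn11a and −0.14 for Trpa1 (adjusted p = 0.329 and 0.715), and 1 member, Ret, rose.

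Of 8 measured proprioceptor genes 3 fell (Etv1, Slc17a7, a vesicular glutamate transporter, and Calb2, calretinin) and 5 did not pass, with a median of −0.73, where 11.7% of all genes fell and 13.4% rose. Slc17a7 was 4.49 to 5.34 in db/db, 5.10 to 5.91 on db/+ 105, 404 and 407, and 8.69 to 9.87 on the 4, and fell by 2.82 ± 0.81 (SE) (limma, Benjamini-Hochberg adjusted p = 0.0233). Calb2 fell by 1.39 ± 0.45 (SE) (adjusted p = 0.0398). The count of 3 was 5 without db/+ 105 or 404, and Calb2 lost its call without any 1 db/db array or any 1 of db/+ 101, 103, 104 and 106 (adjusted p from 0.0596 to 0.0771). With the 4 arrays left out 0 of the 8 passed (limma), against 12.9% of all genes, with Slc17a7 and Calb2 at −0.59 and −0.19 (adjusted p = 0.127 and 0.394).

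Markers of neurons and of other cells were high on the same arrays as the 7 genes. Of 14 pan-neuronal markers 13 were higher on all 4 arrays than on the other 9, against 8.45% of all genes, and their mean was 6.99 to 7.72 in db/db, 7.49 to 8.63 on db/+ 105, 404 and 407, and 10.96 to 11.61 on the 4. The mean of 7 satellite glia markers, the glia that wrap ganglion cell bodies, was 8.58 to 9.11, 8.79 to 8.97 and 10.36 to 10.56 in the same order. Fabp7, a lipid-binding protein of those glia, was 7.80 to 10.59 in db/db, 6.93 to 8.24 on db/+ 105, 404 and 407 and 12.48 to 12.80 on the 4 arrays. Of the 7 satellite glia members 3 were higher on all 4, against the same 8.45%.

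Of the oligodendrocyte and astrocyte markers 3 of 5 were higher on all 4 arrays, against 8.45% of all genes, with list means of 4.26 to 4.69 in db/db, 4.30 to 4.67 on db/+ 105, 404 and 407, and 5.41 to 7.53 on the 4. Mog, a protein of central myelin, was 3.64 to 4.22, 3.95 to 4.15 and 7.37 to 10.04 in the same order. Of motor neuron markers 0 of 3 and of autonomic neuron markers 1 of 7 were higher on all 4, counts too small to set against that 8.45%. The 1 was Th, the enzyme of catecholamine synthesis, at 4.21 to 5.14 in db/db, 4.23 to 5.16 on db/+ 105, 404 and 407 and 7.16 to 9.02 on the 4. The adipocyte list mean was highest in db/db, at 13.29 to 13.37. It was 12.78 to 13.14 on db/+ 105, 404 and 407 and 12.33 to 12.94 on the 4. Of 6 adipocyte markers measured, 3 rose and 0 fell in db/db nerve over all arrays (limma, adjusted p of 0.05), where 13.4% of all genes rose and 11.7% fell. The part of these cell types in the levels of the 7 genes was not tested.

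**Figure D5:**
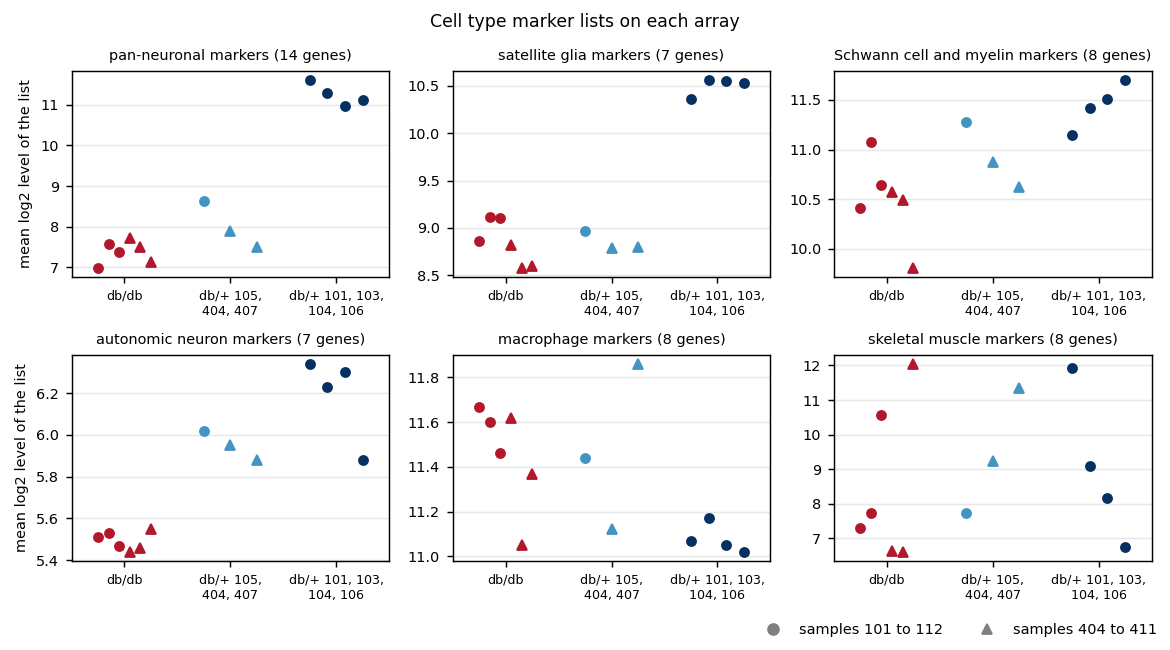
Mean log2 level of 6 marker lists on each array (1 point an array; each panel has its own y axis) for db/db, db/+ 105, 404 and 407, and db/+ 101, 103, 104 and 106; circles are samples 101 to 112 and triangles 404 to 411. Pan-neuronal and satellite glia means are highest on the 4 arrays at the right, and skeletal muscle means spread from 6.61 to 12.04 in db/db alone.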

How the data were processed

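Sciatic nerve RNA was measured on 1-colour arrays after amplification and biotin labelling, per the labels' protocols. Values were deposited as log2 levels, which the authors made with RMA, per the submitters' processing notes; its version is not given in the sources used here. RMA removes differences in total signal between arrays and compresses folds of dim genes, and no detection call marks levels near background. There were 15479 probe sets including 42 controls; 14801 of the other 15437 had a symbol and 636 had none. Genotype was fitted for every gene with limma 3.58.1 in R 4.3.3 (lmFit and eBayes, two-sided, Benjamini-Hochberg adjusted p of 0.05 over 15437 genes), as were the number series within db/db and the interaction of both. On simulated data for 15437 genes the genotype fit recovered 79% of the 1-unit and 98% of the 2-unit log2 changes put in. The simulated noise was the spread within the 3 sets of arrays, so the distance between the db/+ sets was absent from it. Those rates do not hold for genes that the db/+ sets split, such as Isl1 and Myt1, whose spread within db/+ is wider. Members and lists were chosen with earlier results of these data known. Named genes were the 8 members, their relatives, the 10 most like their mean, the nearest of each member, the 3 of smallest p in each of 8 pathway lists and every member of lists with 5 or fewer; other calls were chosen after their values were seen. Of 237 entries in 20 lists 196 were measured. Some genes are in 2 lists, Runx3 and Etv1 among them. Alternatives covered moderation, normalization, dim genes, array weights, the number series and left-out arrays. Other steps used Python 3.11.15, pandas 2.3.3, numpy 2.4.6 and matplotlib 3.10.9.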

Additional observations from a re-analysis of the deposited data

Results flagged for a closer look

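Elavl4 on db/db 411 stood at 5.52, apart from the other 5 db/db arrays at 5.04 to 5.10, by Dixon's criterion for a single distant value (0.625 for 6 arrays). It was the 1 value singled out among 16 groups examined (8 genes in 2 genotypes), and chance singles out about 1 group in 20.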

How the results depend on the processing

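The number of genes past the threshold for genotype was 3867 over all arrays, 1404 in samples 404 to 411, 1992 without db/+ 101, 103, 104 and 106, 6525 with array weights, and 2893 to 4529 when 1 array was left out. Between the number series of db/db it was 371, 874 with an intensity trend, 865 with a robust trend, 711 without the dimmest genes, 27 with the spread pooled over all 13 arrays, and 0 to 200 when 1 array was left out, 200 without 112 and 0 without any other (2528 to 3731 genes at an unadjusted p of 0.05, limma). Fewer arrays were fitted there. Samples 404 to 411 turned the sign of 6 genes named by rule that passed over all arrays: Pou4f1 (0.19), Nap1l2 (0.13), Trpa1 (0.13), Elavl2 (0.053), Shd (0.093) and St8sia3 (0.021). Sorcs3, named after its values were seen, turned as well (0.007). The causes were not tested. The differences of the other 6 listed genes kept their sign under all 24 alternatives. That of Runx1, 0.32 over all arrays, ran from 0.08 without db/+ 101, 103, 104 and 106 to 0.52 with array weights. No paired analysis was possible because the genotypes share no sample number. Low levels near the bottom of the RMA scale bear no detection call, which limits small differences of Pou4f1 and Nap1l2 outside the 4 arrays.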

Other observations

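Genes of neurotrophin and GDNF signalling, Bdnf and Ret, had higher levels in db/db nerve once db/+ 101, 103, 104 and 106 were left out, a difference that the fit over all arrays did not show. They were chosen after their values were seen. Bdnf, the TrkB ligand, was 4.91 to 6.76 in db/db, 4.19 to 4.58 on db/+ 105, 404 and 407 and 7.12 to 9.36 on the 4 arrays. Its difference was −0.61 over all arrays, 1.59 without the 4 and 1.98 in samples 404 to 411 (limma, Benjamini-Hochberg adjusted p = 0.631, 0.0239 and 0.00929). Ret, the receptor of GDNF family ligands, was 9.85 to 10.35 in db/db, 8.39 to 9.33 on db/+ 105, 404 and 407 and 10.83 to 11.39 on the 4 arrays, with differences of −0.06, 1.31 and 1.66 (adjusted p = 0.945, 0.00497 and 0.0144).

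Slc5a7 and Slc6a2, transporters of nerve fibres also chosen after their values were seen, differed between the genotypes without following the 4 arrays. Slc5a7, the choline transporter of cholinergic neurons, was 7.49 to 8.22 in db/db, 3.94 to 4.19 on db/+ 105, 404 and 407 and 3.88 to 4.23 on the 4 (rise of 3.72, adjusted p = 9.07e-10 by limma). Slc6a2, the noradrenaline transporter of sympathetic neurons, was 5.60 to 6.04 in db/db, 7.12 to 8.01 on db/+ 105, 404 and 407 and 6.94 to 7.31 on the 4, and fell by 1.50 (adjusted p = 8.78e-05). The other motor neuron markers, Slc18a3 and Lhx3, stood at −0.09 and 0.09 and did not pass. Of 7 autonomic markers 2 fell, Slc6a2 and Slc18a2 (−0.73), where 11.7% of all genes fell. The other 5 did not pass: Th at −1.835, Gata3 at −0.48, Dbh at 0.135, Hand2 at 0.23 and Phox2a at 0.03. Amounts of fibres were not tested.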
